A study of Mus musculus with 19 samples.

Results

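The accessible regions of mouse chromosome 14 were taken from a list of merged ATAC-seq peaks of skin squamous cell carcinoma. Members were all peaks that start on the chromosome, which gave 2387 of the 61553 peaks in the list. They were set against the 57216 peaks of the 18 other autosomes. The 1037 peaks that start between 58 and 118.1 Mb, a stretch of 60.1 Mb called as 1 copy in the tumour SCC1, were held apart from the 1350 peaks of the rest of the chromosome. The chromosome was chosen by its peak density and its share of peaks with a Smad2/3 site, and the stretch by its copy call, so these values are given as a description.

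All material came from strain C57BL/6 carcinomas of the skin. Tumours were allografts grown from 10000 cells injected intradermally, and sorting used CD71, the receptor for transferrin, and the retained histone label H2BGFP. Quiescent cells were CD71lo H2BGFPhi, double negative cells were CD71lo H2BGFPlo and proliferative cells were CD71hi H2BGFPlo. RNA came from these 3 populations of 2 tumours, SCC1 and SCC2, with 1 library for each population of each tumour. ATAC-seq used the same populations and the CD71hi H2BGFPhi cells of both tumours, plus 2 Tgfbr2KO libraries of another tumour, SCC3. The sources used here do not say which of these 10 libraries entered the merged peaks, so no population could be compared in accessibility. Smad2/3 binding was mapped in 1 library of SCC1 cells, grown in 50 µM calcium and given 5 ng/mL TGFβ1 for 1 h. Copy number came from the input DNA of cultured SCC1 and SCC2 cells with the same treatment, not from the sorted tumour cells.

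ATAC-seq marks DNA that a transposase can enter, which includes active promoters and enhancers. TGFβ receptors phosphorylate Smad2 and Smad3, which then join Smad4 and bind DNA, largely at regions that other factors have opened, and in epithelial cells they switch on arrest genes. Rb1, which marks the stretch, encodes the retinoblastoma protein, which holds E2F factors back and so restrains entry into S phase. Loss of RB1 function is a known event in squamous carcinomas of human patients. The long noncoding RNA gene Dleu2 lies in the same stretch and is the host of miR-15a and miR-16-1, which in mouse and human repress cyclins and other cell cycle genes.

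The promoters shown here are those of 3 genes on which the results turn. Anxa8 is the only chromosome 14 gene of the expression table whose promoter window met both a peak and a Smad2/3 site, Diaph3 (Diap3 in the expression table) is a gene of the stretch with lower ratios in quiescent cells, and Dleu2 is a gene of the stretch with higher ratios. Sequences are from RefSeq on GRCm38.p6, written 5′ to 3′ on the strand of the gene, from 250 bases before to 50 bases after the start. Capitals mark CAGAC or its reverse complement, the longer form of the Smad-binding AGAC. The Anxa8 window is chr14:34085729-34086028 on the plus strand. The Diaph3 window is chr14:87141175-87141474 on the minus strand. The Dleu2 window is chr14:61682324-61682623 on the minus strand.
Anxa8: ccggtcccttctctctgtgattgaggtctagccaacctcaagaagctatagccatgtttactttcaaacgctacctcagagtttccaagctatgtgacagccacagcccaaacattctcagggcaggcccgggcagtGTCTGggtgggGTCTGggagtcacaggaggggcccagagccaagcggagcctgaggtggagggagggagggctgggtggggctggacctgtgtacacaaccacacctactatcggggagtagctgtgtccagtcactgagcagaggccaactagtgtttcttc
Diaph3: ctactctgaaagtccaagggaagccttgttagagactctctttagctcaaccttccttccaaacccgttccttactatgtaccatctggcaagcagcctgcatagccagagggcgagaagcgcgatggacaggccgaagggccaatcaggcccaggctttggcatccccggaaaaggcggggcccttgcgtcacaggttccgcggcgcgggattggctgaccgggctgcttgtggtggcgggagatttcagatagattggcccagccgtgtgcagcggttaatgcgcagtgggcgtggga
Dleu2: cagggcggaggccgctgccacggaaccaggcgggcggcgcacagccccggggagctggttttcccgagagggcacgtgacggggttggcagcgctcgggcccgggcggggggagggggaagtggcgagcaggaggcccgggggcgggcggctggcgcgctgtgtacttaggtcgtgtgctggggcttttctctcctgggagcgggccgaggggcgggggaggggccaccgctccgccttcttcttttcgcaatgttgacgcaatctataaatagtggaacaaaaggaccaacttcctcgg

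The Anxa8 promoter held 2 matches to CAGAC and lay within an ATAC peak at chr14:34085551-34086200. A Smad2/3 site at chr14:34085713-34085913 shared 185 bases of that window, the bases from 250 to 66 before the start, and both matches lay inside it. The Diaph3 and Dleu2 promoters each lay within 1 peak and had no CAGAC and no Smad2/3 site. TGANTCA, the site of AP-1, was absent from all 3 windows, and so was GGCGCC. Both strands were searched, and CAGAC holds AGAC, so these matches overlap. Of 32851 RefSeq promoters of the same length, 49.6% held CAGAC, 88.0% held AGAC, 11.9% held GGCGCC and 7.81% held TGANTCA, so a match to CAGAC or AGAC is common in such windows.

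The 2 miRNAs inside Dleu2 are shown because their 5p arms share the seed AGCAGCA, bases 2 to 8, given in capitals.
mmu-miR-15a-5p: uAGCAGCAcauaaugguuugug
mmu-miR-16-5p: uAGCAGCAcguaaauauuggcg
The arms lie at chr14:61632075-61632096 and chr14:61631936-61631957 on the minus strand. No value is given for the miRNAs, since the expression table holds only the host gene.

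Chromosome 14 carried fewer peaks per Mb than 16 of the 18 other autosomes. Lengths were taken as the span from the first to the last peak, since a genome sequence was not used here, and this span was 116.8 Mb. Chromosome 14 had 20.4 peaks per Mb (95% Poisson interval 19.6 to 21.3), against 25.1 over the other autosomes (24.9 to 25.4). Only chromosome 4 with 18.2 peaks per Mb and chromosome 18 with 19.1 were lower, and chromosome 10 was highest with 31.7. The intervals cover counting error only, and the sequencing depth behind the list is unknown. Counted per protein-coding gene the gap was smaller, with 2.80 peaks per gene on chromosome 14 and 2.89 over the other autosomes. The genes were counted over whole chromosomes, also outside the span of the peaks.

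The stretch was the sparser side of the chromosome. It had 17.3 peaks per Mb (16.2 to 18.3), against 23.8 (22.5 to 25.1) in the rest. The part before the stretch had 23.0 peaks per Mb and the part after it, 6.50 Mb long, had 30.0. Per protein-coding gene the order was the opposite, with 4.49 peaks per gene in the stretch and 2.18 in the rest. The stretch held 3.84 protein-coding genes per Mb against 10.9 in the rest. The count for the rest includes genes before the first peak, in DNA that the span leaves out, so its genes per Mb are overstated. The 2 Mb bins from 0 to 6 Mb held no peak and 1, 16 and 29 protein-coding genes. Just outside the lower edge the last peak was chr14:57999001-57999550 and just inside the first was chr14:58071651-58072450. Just inside the upper edge the last peak was chr14:118089051-118089850 and just outside the next was chr14:118132501-118133150. The 2 Mb inside the lower edge held 16 peaks and the 2 Mb outside it 48. At the upper edge the counts were 6 inside and 48 outside.

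Within the stretch the low density was not even. From 62 to 66 Mb there were 34.5 peaks per Mb with 47 protein-coding genes. From 80 to 98 Mb there were 5.61 peaks per Mb with 9 genes, and from 110 to 118 Mb there were 4.50 peaks per Mb with 4 genes. Between these, from 100 to 110 Mb, there were 20.6 peaks per Mb with 20 genes.

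**Figure D1:**
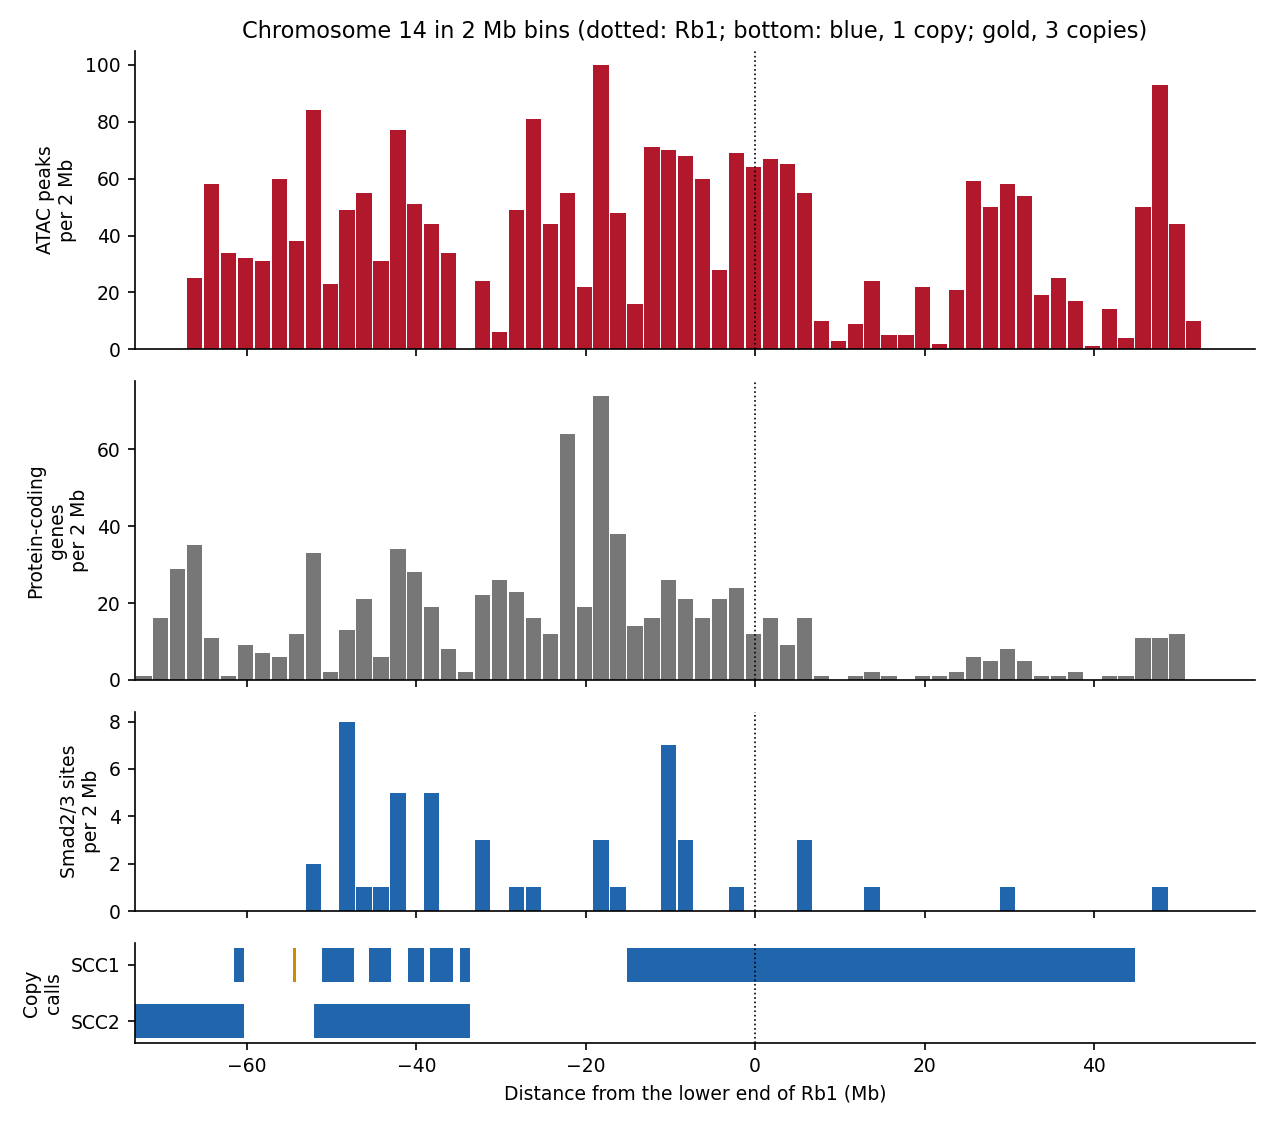
Counts in 2 Mb bins along chromosome 14 of merged ATAC peaks, protein-coding genes and Smad2/3 sites (bars, top to bottom), and the copy calls of SCC1 and SCC2, against the distance in Mb from the lower end of Rb1. Peaks are dense around Rb1 and thin out with the genes at chromosome positions from 80 to 98 Mb. From 98 to 106 Mb they rise again to between 50 and 59 per bin, with 5 to 8 genes per bin. Of the 16 sites of the stretch, 10 lie in one group before Rb1.

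Across the 58 bins of 2 Mb within the span, the number of peaks went with the number of protein-coding genes, with a Spearman rank correlation of 0.66. Within the 30 bins of the stretch the correlation was 0.87, and in the 28 other bins it was 0.43. The bins share one peak list and neighbouring bins are not independent, so these are descriptions. A bin of the stretch held from 1 to 71 peaks with a median of 24.5, and 8 of the 30 held 10 or fewer. A bin of the rest held from 0 to 100 peaks with a median of 46.0, and 2 of the 28 held 10 or fewer.

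The typical peak on chromosome 14 was as wide as elsewhere. The median width was 550 bp on chromosome 14 and on each other autosome, and the quartiles were 450 and 650 bp on chromosome 14 and over the other autosomes pooled. Peaks of 1000 bp or more were 3.18% of chromosome 14 peaks (76 peaks, exact 95% binomial interval 2.52 to 3.97%) and 4.01% of those on the other autosomes. In the stretch 30 peaks, or 2.89%, were that wide, and in the rest 46 peaks, or 3.41%. The widest, 1700 bp at chr14:87415601-87417300, lay over Tdrd3, which encodes a Tudor domain protein that binds methylated arginine. The next 3, each of 1450 bp, lay over Nr1d2, which encodes the clock repressor REV-ERBβ, over Dcaf11 and over the guanine nucleotide exchange factor gene Dock9. The fifth, 1400 bp, lay over the small GTPase gene Rap2a. None of these 5 shared a base with a Smad2/3 site.

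Spacing was a little wider on chromosome 14. The median distance from a peak to its nearest neighbour was 6.65 kb, against 5.85 kb on the other autosomes, and only 3 autosomes had a larger median. In the stretch it was 7.15 kb and in the rest 6.45 kb. Peaks with no other within 100 kb were 2.56% on chromosome 14 and 1.95% on the other autosomes. They were 3.47% in the stretch and 1.85% in the rest. Gaps of 1 Mb or more between neighbouring peaks numbered 8 on chromosome 14, against 1 to 18 with a median of 6.5 on the others. Of the 8, 4 lay in the stretch. The DNA before the first and after the last peak of a chromosome was not counted as a gap. On chromosome 14 the 2 Mb bins from 0 to 6 Mb held no peak. The longest gap between peaks, 3.75 Mb at chr14:37135701-40885250, and the second, 2.77 Mb at chr14:41035851-43808100, lay before the stretch, and 42 protein-coding genes start inside the second. The longest in the stretch was 2.38 Mb at chr14:112415151-114791500, in which no protein-coding gene starts.

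Smad2/3 sites were rarer on chromosome 14 than on any other autosome. The submitters' list of bound sites with a motif held 48 sites of 201 bp on chromosome 14, against 207 to 556 on each other autosome. That was 0.411 sites per Mb, against 2.66 over the other autosomes and 1.63 on chromosome 3, the next lowest. Of the 2387 peaks, 36 shared at least 1 bp with a site, or 1.51% (exact 95% binomial interval 1.06 to 2.08%). On the other autosomes 6.34% of peaks did so (6.14 to 6.54%), and the next lowest, chromosome 4, had 4.58%. Chromosome X had a share of 1.30% (0.840 to 1.91%), with 25 of 1929 peaks.

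**Figure D2:**
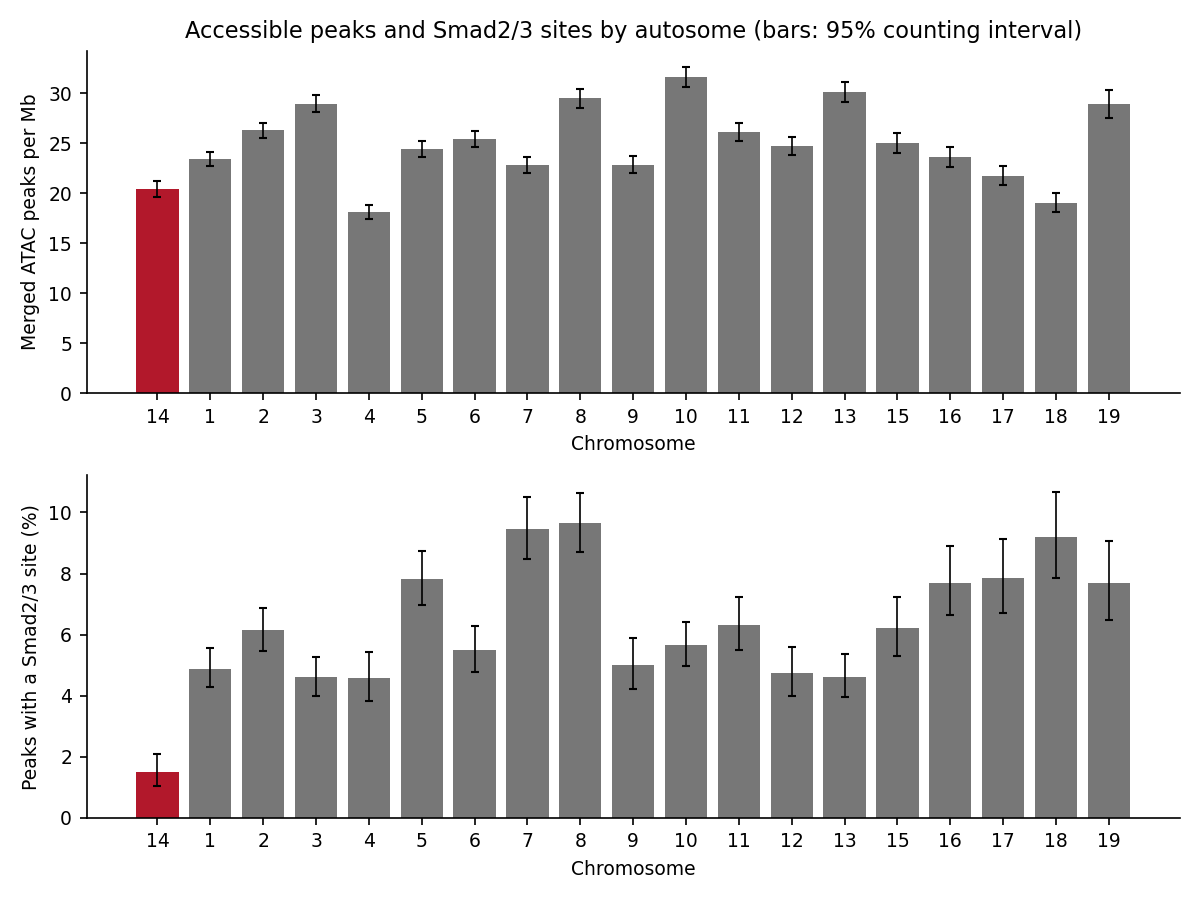
Merged ATAC peaks per Mb (top) and the percentage of peaks with a Smad2/3 site (bottom) for chromosome 14, in red, and the other autosomes, in grey, with 95% counting intervals. Chromosome 14 has the lowest density after chromosomes 4 and 18, at 20.4 peaks per Mb, and is lowest in the share with a site, at 1.51%.

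The sites that were present lay in peaks more often than over the other autosomes pooled, and within the range of single ones. On chromosome 14, 36 of the 48 sites shared a base with a peak, or 75%, against 59.8% on the other autosomes and 39.9% to 81.8% on single ones. Each of the 36 peaks held 1 site. They had a median width of 700 bp, against 550 bp for the chromosome 14 peaks with no site, and on the other autosomes peaks with a site had a median of 650 bp. Of the 36, 25 or 69.4% lay over a protein-coding gene, against 56.0% of the peaks with a site on the other autosomes.

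The share of peaks with a site was lower on chromosome 14 in each class of peak width and of overlap with a protein-coding gene. Among peaks of 700 bp or more, 3.64% of chromosome 14 peaks held a site (2.24 to 5.56%), against 10.3% on the other autosomes. Among peaks of under 500 bp it was 0.691% (0.225 to 1.60%), against 3.66%. Over protein-coding genes it was 1.81% on chromosome 14 and 6.19% on the others, and outside such genes 1.09% and 6.55%. In each of the 3 width classes and in both gene classes chromosome 14 was the lowest of the 19 autosomes. The classes split the same peaks whose share was used to choose the chromosome, so these ranks are a description and not separate support. Of RefSeq promoter windows, 3 of 1355 on chromosome 14 met a site, or 0.221% (0.0457 to 0.646%), against 1.33% on the other autosomes except chromosome 18, whose promoters were not used here. The windows of chromosome 14 cover 675 of its 851 protein-coding genes. The promoters that did so were those of Anxa8 and of the predicted genes Gm32497 and Gm52148.

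In the stretch 11 of the 1037 peaks held a site, or 1.06% (0.531 to 1.89%), and in the rest 25 of 1350, or 1.85% (1.20 to 2.72%). These intervals overlap. Both intervals lie below the 4.58% of the next lowest autosome. Before the stretch the share was 2.08%, and after it 1 of 195 peaks held a site.

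The deposited copy calls put much of the loss of these tumours on chromosome 14. In the authors' deposited table SCC1 had 7 losses of 73.5 Mb in all on chromosome 14, and 7 losses of 18.7 Mb on the other autosomes. In SCC2 the authors' deposited table gave 2 losses of 31.2 Mb on chromosome 14 and 16 losses of 46.7 Mb on the other autosomes. In that table the loss that makes up the stretch had a Wilcoxon p-value of 1.76e-127, computed by the authors from 1 input library. The SCC2 loss at chr14:21100001-39500000 had a Wilcoxon p-value of 9.71e-30 in the authors' deposited table. It covered 5 of the SCC1 losses, and no SCC2 loss or gain was called in the stretch. Rb1 lay at 1 copy in SCC1 and in no called region in SCC2.

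The share of peaks with a site was also taken by copy call, and an effect of copy number on this share was not tested. In SCC1 losses it was 1.35% on chromosome 14 (0.787 to 2.15%, 1261 peaks) and 1.51% on the other autosomes (0.312 to 4.34%, 199 peaks, 3 with a site). In DNA with no SCC1 call it was 1.70% on chromosome 14 (1.03 to 2.64%, 1118 peaks) and 5.99% on the other autosomes (5.75 to 6.23%). In regions of 3 copies in SCC1 on the other autosomes it was 7.28%. Peaks of chromosome 14 with no loss in either tumour had a share of 1.32%, with 11 of 835. Those with a loss in SCC2 alone had 2.75%, with 8 of 291, and those with a loss in both had 2.68%, with 6 of 224. On the other autosomes the share was 6.70% at 4 copies in SCC1 and 4.46% at 5 or more. The SCC2 calls gave other values, but the Smad2/3 sites came from SCC1 cells, so these calls describe another tumour than the one mapped. In SCC2 losses the share was 2.72% on chromosome 14 (1.49 to 4.52%, 515 peaks) and 5.64% on the other autosomes (4.04 to 7.62%, 692 peaks), and in DNA with no SCC2 call it was 1.18% on chromosome 14 and 5.96% on the other autosomes. On the other autosomes the share was lowest at 1 copy by the SCC1 calls, on 3 peaks with a site. By the SCC2 calls it was lowest at 5 or more copies, with 3 of 120 peaks, or 2.50%. Peak density in SCC1 losses was 17.2 per Mb on chromosome 14 and 10.6 on the other autosomes, and outside any SCC1 call it was 26.0 on chromosome 14 and 24.9 on the others.

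**Figure D3:**
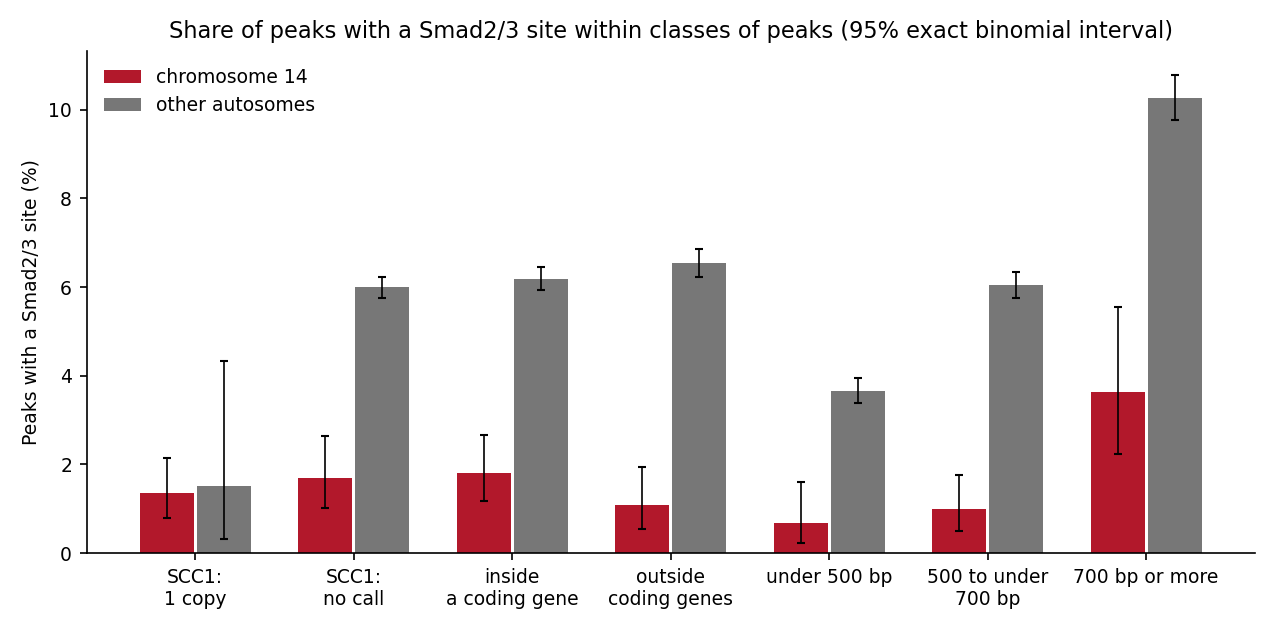
Percentage of peaks with a Smad2/3 site on chromosome 14 (red) and the other autosomes (grey) by SCC1 copy call, by overlap with a protein-coding gene and by peak width, with exact 95% binomial intervals. Within SCC1 losses the values are 1.35% and 1.51% with overlapping intervals, and in every other class shown chromosome 14 is lower.

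The 48 sites fell in a few groups. The first was at 20.8 Mb, and none of the 316 peaks before it held a site, which allows a share of up to 0.949%, taking 3 counts as the limit that a count of 0 allows. From 20 to 42 Mb there were 25 sites, and from 62 to 66 Mb there were 10 of the 16 sites of the stretch. The longest run without one was 17.7 Mb, up to the last site, and none of the 257 peaks in that run held a site, which by the same limit allows a share of up to 1.17%. Of the 48 sites, 15 lay within 100 kb of the one before.

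Zmiz1, which encodes a coactivator of the PIAS-like family that works with androgen receptor, p53 and Smad3, had 6 sites within 100 kb, 2 of them in peaks. Anxa8, which encodes a calcium-binding annexin, had 3 sites in 3 neighbouring peaks between chr14:34085551-34086200 and chr14:34089801-34090350. Tspan14, a tetraspanin gene, had 3 sites within 100 kb, and peaks with a site lay over it at chr14:40949601-40950350 and chr14:40956001-40956900. Stab1, which encodes a scavenger receptor of macrophages and endothelium, had 2 peaks with a site. These 4 genes lay outside the long stretch, but the lower ends of Zmiz1 and Anxa8 lay in DNA called as 1 copy in both tumours. In the stretch, Zfp957 had 3 sites within 100 kb, and a peak with a site lay 1.18 kb from it at chr14:79248551-79249250.

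Among the other peaks with a site, one of 400 bp at chr14:20836451-20836850 lay over Plau, the urokinase plasminogen activator. One of 750 bp at chr14:54435101-54435850 lay over Mmp14, a membrane-bound matrix metalloproteinase. One of 1200 bp at chr14:63131651-63132850, in the stretch, lay over Ctsb, the lysosomal protease cathepsin B. One of 750 bp at chr14:47371501-47372250 lay 1.61 kb from Lgals3, which encodes the galactose-binding lectin galectin-3. Others lay over Ajuba, a LIM protein of cell contacts, over Arhgef3, another exchange factor gene, and 1.25 kb from Prkcd, which encodes protein kinase Cδ. These 7 are named from the 36 after their positions were seen.

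In the stretch the peaks with a site lay over Wdfy2, Ctsb, Fam167a, Pinx1, Rp1l1, Ints9, Extl3 and Vwa8, near Zfp957 with 2 peaks, and 302 kb from Kctd12. Pinx1 encodes an inhibitor of telomerase and Extl3 a glycosyltransferase of heparan sulfate synthesis. Of the 12 sites outside peaks, 1 lay over Lats2, a kinase of the Hippo pathway, 1 lay 37.4 kb from Gata4 and 1 lay 30.9 kb from Diaph3. The single site after the stretch lay in a peak over Mbnl2, a splicing regulator.

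Rb1, at chr14:73192858-73325951, had 8 peaks over its body and 9 with 10 kb added on each side. The peaks were 300 to 850 bp wide, and the widest, at chr14:73325401-73326250, lay across the upper end of the gene. None held a Smad2/3 site, and the nearest site was 2033 kb away. Lpar6, which encodes a lysophosphatidic acid receptor, lies inside Rb1 at chr14:73237891-73240358, and the peak at chr14:73237601-73238250 lay across its lower end. Dleu2, at chr14:61602836-61682373, had 5 peaks over its body and 7 with 10 kb on each side. Its nearest site was 1258 kb away, and no peak lay over either miRNA hairpin.

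The authors' table of changed genes gives, for each gene, a log2 ratio between 2 populations of 1 tumour, with no error or p-value. Of its 1609 genes, 1600 could be placed with RefSeq, and 50 lay on chromosome 14, 19 in the stretch and 31 in the rest. Rb1 was not among them. Among protein-coding genes 5.52 per 100 on chromosome 14 were in the table, against 5.17 to 9.28 on the other autosomes. The genes entered the table because they changed, so their counts are read against those of the whole table.

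In the authors' deposited table, 17 of the 50 genes were higher in quiescent than in proliferative cells in both tumours, where 35.8% of the whole table was. Another 27 were lower in both, where 52.3% of the whole table was, and 6 had opposite signs. These shares, 34% and 54%, were near the background. In the stretch 7 of 19 were higher and 10 lower, and in the rest 10 of 31 were higher and 17 lower. By the authors' deposited table the 50 genes had a median ratio of -0.48 for SCC1 and -0.60 for SCC2, against -0.61 and -0.49 over all its genes. Quiescent and proliferative cells were sorted in bulk, so a smaller fraction of cells with a transcript and less of it per cell cannot be told apart.

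Genes of cell division and DNA replication were lower in quiescent cells in both tumours. Of 21 such genes listed for chromosome 14, 11 were in the authors' deposited table and all 11 were lower, where 52.3% of the whole table was. Their median log2 ratio was -3.54 for SCC1 and -1.41 for SCC2, against -0.61 and -0.49 over the whole table. The list was drawn up with results of these samples known, so the direction is not independent evidence. In 10 of the 11 the SCC1 ratio was the more negative one, Kpna3 being the exception, and the share of the whole table that did so was not taken.

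In the stretch, Esco2, the acetyltransferase that sets sister chromatid cohesion, had log2 ratios of -6.09 for SCC1 and -3.43 for SCC2 in the authors' deposited table. Diap3, the RefSeq gene Diaph3 that encodes a formin of cytokinesis, had -4.49 and -2.64 in that table. Cdca2, which encodes the protein that targets phosphatase PP1 to anaphase chromosomes, had -3.39 and -2.29 in the authors' deposited table. Pbk, a kinase of mitotic cells, had -5.52 and -1.70 and Bora, an activator of Aurora A, had -1.55 and -1.40 in the authors' deposited table. Esco2, Diap3 and Pbk lay below the median of the list in each tumour. Kpna3, an importin that carries proteins into the nucleus, had -0.62 and -1.33, and Rnaseh2b, a subunit of the nuclease that removes ribonucleotides from DNA, had -1.27 and -0.63 in the authors' deposited table.

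Outside the stretch, Wdhd1, a replisome protein that links the helicase to polymerase α, had -3.28 for SCC1 and -2.08 for SCC2 in the authors' deposited table. Dlgap5, a spindle assembly factor, had -4.20 and -1.41, and Ska3, a kinetochore protein, had -3.54 and -1.41 in that table. Cdkn3, a phosphatase that acts on Cdk2, had -5.72 for SCC1 and -1.07 for SCC2 in the authors' deposited table. Its 2 tumours thus lay far apart, although on the same side of 0.

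Genes higher in quiescent cells were led by genes of the stretch. Slitrk5, a neuronal transmembrane protein that shapes neurite growth, had 1.95 for SCC1 and 5.66 for SCC2 in the authors' deposited table. Dleu2 had 1.83 and 2.88, and the protocadherin gene Pcdh9 had 2.30 and 1.36 in that table. These 3 were the only genes of the 50 with a ratio of 1 or more in both tumours, which 11.3% of the whole table had. Nudt18, a hydrolase of oxidised nucleotides, had 0.93 and 1.18, and Lpar6 had 0.56 and 1.06 in the authors' deposited table. Tsc22d1, a TGFβ-stimulated leucine zipper gene, had 0.44 and 1.35, and Clu, the secreted chaperone clusterin, had 0.34 and 1.26 in the same table.

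In the rest, Lgals3 had 0.94 for SCC1 and 0.91 for SCC2 and Anxa8 had 0.81 and 1.07 in the authors' deposited table. Smim4 had 0.62 and 1.33 in that table. Irf9, the DNA-binding part of the interferon-stimulated complex ISGF3, had 0.57 and 1.17, and Fermt2, the integrin activator kindlin-2, had 0.57 and 0.80 in the authors' deposited table. The matrix and adhesion list held 22 genes of the chromosome. All 4 of them that were in the table, Fermt2, Clu, Pcdh9 and Slitrk5, were higher in both tumours, where 35.8% of the whole table was. This list too was drawn up with results of these samples known. It takes in Clu, a secreted chaperone, and Slitrk5, a neuronal transmembrane protein, so no matrix pattern is read from it. The remaining lists had 1 or 2 genes in the table each, too few to read a pattern from. The growth factor signalling list had Tsc22d1, and the epithelial list had Lgals3 (higher) and Ripk3 (lower). The immune list had Irf9 and Lpar6 (both higher), and the stress response list had Anxa8 (higher) and Anxa11 (lower). The list names are loose, since Lpar6 encodes a lysophosphatidic acid receptor and Anxa8 a calcium-binding annexin.

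Among other genes lower in quiescent cells, Dpysl2, a regulator of microtubules, had -1.31 for SCC1 and -1.28 for SCC2 in the authors' deposited table. Ang2, a ribonuclease of the angiogenin family, had -1.87 for SCC1 and exactly -12 for SCC2 in the authors' deposited table. This fixed value recurs, with either sign, in 29 of the 1609 genes of that column and is not read as a fold. The genes with opposite signs that differed most were Tnnc1, Irg1, Gm10845, Ppyr1 and 2610528A11Rik. Tnnc1, a troponin of slow muscle, had 1.57 for SCC1 and the fixed value of -12 for SCC2 in the authors' deposited table. Irg1, the enzyme that makes itaconate in macrophages, had -0.22 for SCC1 and 3.42 for SCC2 in the authors' deposited table. Gm10845, in the stretch, had -0.32 and 1.96, and outside it Ppyr1, a receptor gene of pancreatic polypeptide, had 1.41 and -0.18 in that table.

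Among the other members, Dis3, the nuclease of the RNA exosome, had -1.14 for SCC1 and -0.91 for SCC2, and Uchl3, a ubiquitin hydrolase, had -1.23 and -0.60 in the authors' deposited table. Both lie in the stretch. Outside it, Dnajc9, a histone cochaperone, had -1.57 and -0.60, and Tkt, the transketolase of the pentose phosphate pathway, had -0.99 and -0.51 in that table. Kat6b, a histone acetyltransferase, had 0.73 and 0.45 and Rnase4, a secreted ribonuclease, had 0.53 and 1.03 in the authors' deposited table. Each of these 6 genes kept its sign in both tumours, but they were picked outside the naming rules. Opposite signs were found in 6 of the 50 genes and in 11.9% of the whole table, so a kept sign is common.

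**Figure D4:**
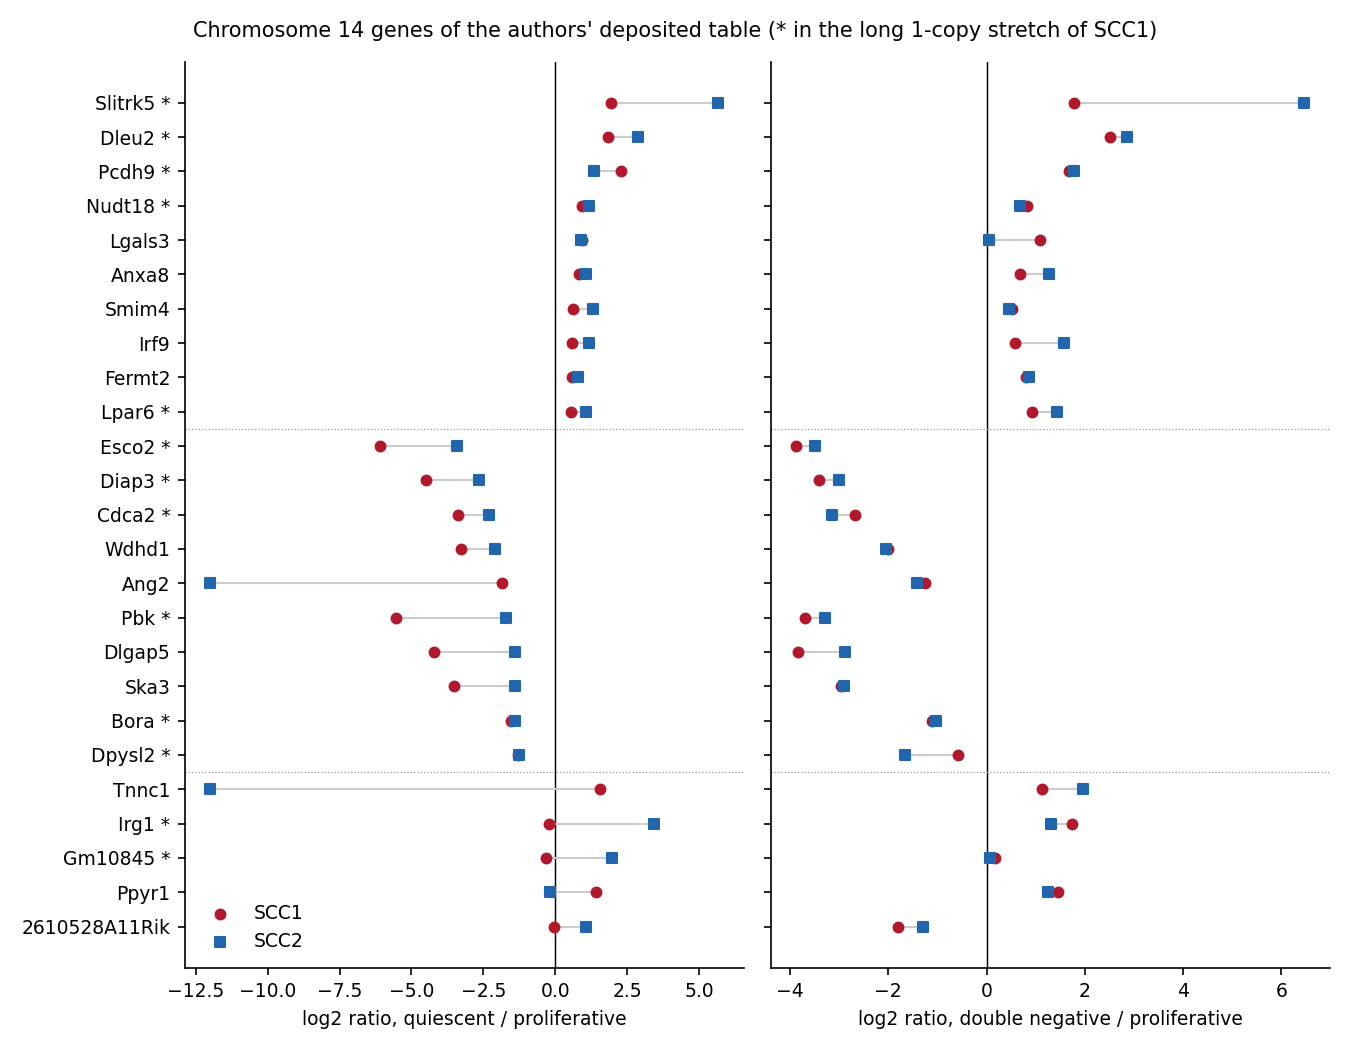
The log2 ratios of the authors' deposited table for 25 chromosome 14 genes in SCC1 (red circles) and SCC2 (blue squares), quiescent over proliferative (left) and double negative over proliferative (right), in 3 blocks of genes higher in both tumours, lower in both and of opposite sign. Tnnc1 and Ang2 sit at the fixed value of -12 in SCC2 on the left, and on the right all genes have the same sign in both tumours.

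The ratios of double negative over proliferative cells had the same sign in both tumours for all 50 genes. Opposite signs were rare in the whole table too, at 6.53% of its genes. By the authors' deposited table, 24 of the 50 were higher, where 42.6% of the whole table was, and 26 were lower, where 50.9% of the whole table was. This comparison shares the proliferative libraries with the one above. The 11 cell division genes were all lower, their medians being -2.97 for SCC1 and -2.91 for SCC2 in the authors' deposited table, so the 2 tumours lay closer together than in quiescent cells. Esco2 had -3.87 and -3.50, and Cdkn3 had -3.78 and -3.82 in that table. Clu had 2.82 for SCC1 and 1.94 for SCC2, and Slitrk5 had 1.79 and 6.47 in the authors' deposited table.

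Quiescent cells set against double negative cells gave fewer shared signs. By the authors' deposited table, 3 of the 50 genes were higher in both tumours, where 16.3% of the whole table was, and 23 were lower, where 30.0% of the whole table was. Of the 23, 6 lay in the stretch and 17 in the rest. The cell division genes had medians of -0.75 for SCC1 and 0.46 for SCC2 in the authors' deposited table, on opposite sides of 0. Clu had -2.52 and -0.72, and 2610528A11Rik had 1.71 and 2.35 in that table. Both comparisons with quiescent cells use the same quiescent libraries.

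Few of these genes had a Smad2/3 site nearby. Over the gene body and 10 kb on each side, 5 of the 50 had a site, or 10% (exact 95% binomial interval 3.33 to 21.8%). On the other autosomes 334 of 1500 did, or 22.3% (20.2 to 24.5%), and the intervals overlap. The chromosome was chosen by its share of peaks with a site, so this count is not a separate result. The 5 genes were Anxa8 with 3 sites, Anxa11 and Stab1 with 2 each, and Txndc16 and Lgals3 with 1 each. Anxa8 and Lgals3 were higher in quiescent cells in both tumours, Anxa11 and Stab1 were lower, and Txndc16 had opposite signs. None of the 19 genes of the stretch had one, which allows a share of up to 15.8% at 3 counts of the total. The 50 genes had a median of 3 peaks and at most 18, for Thrb, the thyroid hormone receptor gene. Table genes on the other autosomes had a median of 2. Of the 50 genes, only Tnnc1 and Zfp488 had none. The 3 stretch genes with the largest ratios in quiescent cells had peaks, with 13 for Pcdh9, 7 for Dleu2 and 2 for Slitrk5. These counts were not scaled by gene length, and a link between peaks and ratios was not tested.

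Nonsynonymous mutations called from the RNA-seq reads were few on chromosome 14. Of 656 distinct mutations in the authors' deposited table, 19 in 18 genes lay there, 6 in the stretch and 13 in the rest. That was 2.23 per 100 protein-coding genes, against 1.72 to 8.59 with a median of 3.04 on the other autosomes. The deposited table listed 9 of them in both tumours, 6 in SCC1 alone and 4 in SCC2 alone.

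In the stretch, the Kpna3 change Q467H was in 75% of 12 reads of quiescent SCC1 cells (exact 95% binomial interval 42.8 to 94.5%) and in 78% of 18 reads of proliferative SCC1 cells (52.4 to 93.6%). In proliferative SCC2 cells it was in 83% of 12 reads (51.6 to 97.9%), so the 3 libraries differed by less than their counting error. The Rcbtb1 change Q504L was in 27% of 15 reads of proliferative SCC1 cells (7.79 to 55.1%) and in 69% of 16 reads of proliferative SCC2 cells (41.3 to 89.0%). A second Kpna3 change, D232A, was in 25% of 28 reads of proliferative SCC1 cells. The Pcdh9 change E909G was in 42% of 12 reads of quiescent SCC1 cells (15.2 to 72.3%). These depths are low, and a gene is listed only where its transcript was read, so a mutation missing from a library was not necessarily missing from its cells.

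Outside the stretch 2 mutations were listed in all 4 libraries. The Glud1 change E373D, in the mitochondrial glutamate dehydrogenase, was in 61% of 138 reads of quiescent SCC1 cells and 58% of 232 reads of proliferative SCC1 cells. In SCC2 it was in 78% of 23 reads of quiescent cells and 69% of 199 reads of proliferative cells. The Psme2 change Y231C, in a proteasome activator subunit, was in 57% of 42 reads of quiescent SCC1 cells and 55% of 84 reads of proliferative SCC1 cells. In SCC2 it was in 52% of 31 reads of quiescent cells and 60% of 100 reads of proliferative cells. Glud1 lay in DNA called as 1 copy in SCC2 and in no called region in SCC1, and Psme2 in no called region in either. Within each tumour the 2 populations had overlapping intervals for both mutations. The Prkcd change M425L was lower, at 29% of 28 reads of quiescent and 35% of 57 reads of proliferative SCC1 cells, and 22% of 54 reads of proliferative SCC2 cells.

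**Figure D5:**
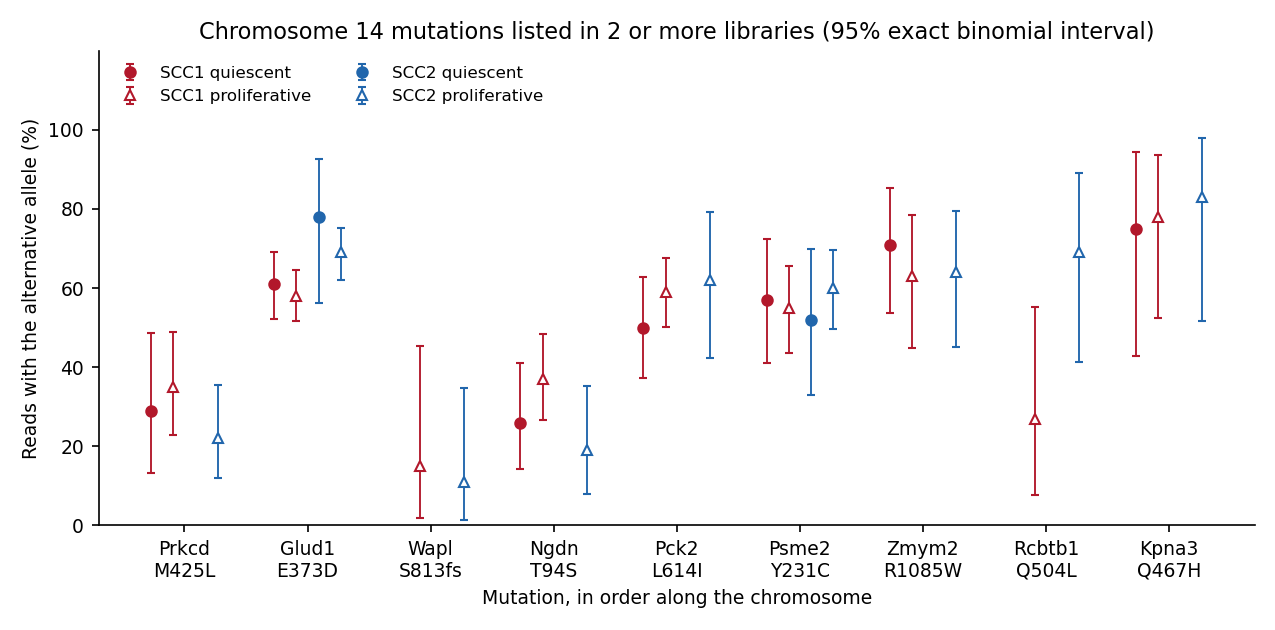
Percentage of RNA-seq reads with the alternative allele for the chromosome 14 mutations listed in 2 or more libraries, by tumour (red SCC1, blue SCC2) and population (filled circles quiescent, open triangles proliferative), with exact 95% binomial intervals. Kpna3 and Rcbtb1, on the right, lie in the stretch, and within a tumour the 2 populations overlap in each mutation that has both.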

How the data were processed

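The merged ATAC peaks and the Smad2/3 sites were deposited as positions without scores. Reads were aligned with Bowtie to mm10, per the submitters' processing notes, with Picard 1.88 for the ChIP and input DNA. No source used here names the callers of peaks, motifs, copy number or mutations. The authors deposited whole copy numbers per region with a p-value each, log2 ratios per gene (TopHat2 2.0.9, Cufflinks 2.2.0 and Cuffdiff 2.2.0, per the submitters' processing notes, where double negative RNA lists mm9 beside mm10), and mutations with a read count and a percent of alternative reads each, rounded by the authors.

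Peaks were placed by their start. A peak held a site where both shared at least 1 bp. Genes were matched to RefSeq GRCm38.p6 by symbol, then synonym. The stretch was taken as the longest SCC1 loss on chromosome 14. Intervals are exact Poisson or Clopper-Pearson binomial at 95%, from scipy 1.17.1 under Python 3.11.15, and cover counting error only; where a count of 0 is given an upper limit, it is 3 counts of the total. The ratios come without errors, from 1 library per population and tumour, and were not tested; a ratio was counted as higher or lower where both tumours had its sign. Overlap counting was checked on simulated intervals. The genes named are Rb1, up to 10 per direction with the largest smaller-of-both-tumours ratio, 5 of opposite sign and members of the role lists. Dis3, Uchl3, Dnajc9, Tkt, Kat6b and Rnase4 were added outside these rules. Members and lists were chosen with earlier results of these data known. Depth per library is unknown. Motif and promoter values use the RefSeq promoter table, which is not complete, so distances to start sites were not used. Alternatives were another span, joined or wider peaks, counts per gene, shifted edges, other overlaps, larger ratios, each tumour alone and other gene windows.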

Additional observations from a re-analysis of the deposited data

How the results depend on the processing

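The stretch over the rest of chromosome 14 had a peak density ratio of 0.725, and this turned to 2.06 when peaks were counted per protein-coding gene. With the edges moved in by 2 Mb it was 0.801, and over the span from the first to the last RefSeq gene, chosen after seeing the data, 0.825. Chromosome 14 over the other autosomes was 0.812, with 0.971 per protein-coding gene and 0.776 over the RefSeq span. Among peaks of 600 bp or more, also chosen after seeing the data, the share with a site was 2.51% on chromosome 14, 1.90% in the stretch and 9.06% on the other autosomes. The share on the other autosomes was 6.03% when the midpoint of a site had to lie in the peak and 7.18% with 500 bp added on each side. With a ratio of 1 or more in both tumours, quiescent cells had 3 higher and 11 lower genes, where 11.3% and 23.3% of the whole table were. Each tumour alone gave 20 higher and 30 lower genes. A window of 50 kb gave 12 genes with a site, in place of 5. Of 33 alternatives, 20 stayed within the interval of the value or within 1.5 times the count. The minimum of 300 bp removed no peak, so its values could not change, and they are among these 20. Density over chromosome length or outside assembly gaps was not run, since a genome sequence was not used here. No paired analysis was possible because each ratio is already taken within a tumour and each population has 1 library per tumour. The number of sites limits the shares, and Smad2/3 sites rest on 1 library.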
